A study of Mus musculus with 9 samples.

Results

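Neurotrophins and their receptors were examined in the layers of the mouse piriform cortex, the olfactory cortex that receives input from the olfactory bulb. The genes were 2 ligands (Bdnf and Ntf3), the Trk receptors Ntrk2 and Ntrk3, the p75 receptor Ngfr and the sorting receptor Sort1, 6 of the 33940 genes with a matched transcript in the data. The rule uses gene names and no measured value, and the genes were picked with earlier results of these data known. Each gene was followed by the transcript with the highest mean count over the 9 samples, and both counted transcripts of Ntrk2 were described.

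Tissue came from wild-type C57BL/6 mice, 8 weeks old by the sample labels and 10 by the study's methods. The layers were isolated by laser-capture micro-dissection, a method that excises a chosen area of a section under the microscope, and are called A, B and C by the labels, which give no key to the numbered layers. Each layer had 3 replicates, no treatment was applied, and all 9 libraries were amplified from small amounts of RNA. Neither source says whether replicates came from separate mice, so p-values measure the spread between these samples, which may be technical.

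Neurotrophins are secreted growth factors that are made as precursors and cleaved to their mature form. Mature BDNF binds TrkB, the product of Ntrk2, and neurotrophin-3 binds TrkC, the product of Ntrk3, and both receptors signal through a tyrosine kinase inside the cell. The precursors bind p75 (Ngfr) together with sortilin (Sort1), which also sorts BDNF inside the cell. In adult cortex Bdnf is made mainly by excitatory neurons, the full-length TrkB mainly by neurons, and a truncated TrkB without the kinase largely by astrocytes.

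The annotated transcripts show where the truncated receptors part from the full-length ones. The sequences below are shown because the main result of Ntrk2 turns on this junction. They are GENCODE transcript sequences on GRCm38, written 5′ to 3′, with the last shared coding bases in lower case and the first bases of the transcript's own next exon in capitals. For Ntrk2-202 the capitals run through the stop codon.
Ntrk2-201: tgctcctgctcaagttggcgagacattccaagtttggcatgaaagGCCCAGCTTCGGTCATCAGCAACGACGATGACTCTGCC
Ntrk2-202: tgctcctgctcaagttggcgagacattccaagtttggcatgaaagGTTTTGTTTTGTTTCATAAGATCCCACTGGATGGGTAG
Ntrk3-201: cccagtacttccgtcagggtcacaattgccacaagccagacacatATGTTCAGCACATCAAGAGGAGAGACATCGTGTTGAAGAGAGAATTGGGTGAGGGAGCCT
Ntrk3-202: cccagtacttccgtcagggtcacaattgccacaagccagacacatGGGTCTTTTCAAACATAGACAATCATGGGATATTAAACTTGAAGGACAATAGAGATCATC

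The 2 Ntrk2 transcripts share 1393 coding bases. Ntrk2-201 (ENSMUST00000079828, chr13:58807697-59133970, plus strand, 18 exons) then continues into exon 13 (chr13:58985802-58985990) and has 1073 further coding bases, stop codon included. Ntrk2-202 (ENSMUST00000109838, chr13:58808281-58937027, 12 exons) ends in exon 12 (chr13:58932023-58937027), of which only the first 38 bases are coding. The Ntrk3 transcripts, on the minus strand, share 1585 coding bases. Ntrk3-201 (ENSMUST00000039431, chr7:78175959-78578408) continues at chr7:78260284-78260414 with 893 coding bases, and Ntrk3-202 (ENSMUST00000039438, chr7:78300690-78577982) continues at chr7:78304292-78304426 with 254.

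Total counts ranged from 23104306 to 76471683 per library. Mitochondrial transcripts took 56.41% to 72.6% of the counts in layer A, 13.13% to 30.1% in B and 21.22% to 58.98% in C, which left 6929782 to 60245059 counts per library for other transcripts. A floor of 3 counts corresponded to 0.0256 to 0.254 normalized CPM, that is, counts per 1000000 with library sizes scaled by the TMM method. Such floors cover counting error only, since amplified reads carry no molecular identifiers. Layer B replicate 3 stood apart from the other layer B libraries. Its correlation with them was 0.888 and 0.88, where theirs was 0.978, and its summed level of GABAergic neuron markers was 289 normalized CPM against 61.3 and 57.2. Main results on the 6 genes that rest on layer B are therefore also given without it.

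Markers of the cell types that a layer can hold differed between the layers. Each of the 12 astrocyte markers had a higher level in layer A than in B and than in C, with summed levels of 5570 to 11400 normalized CPM in layer A, 775 to 1390 in B and 1350 to 1870 in C. Levels of all 6 endothelial, 6 mural and 8 meningeal markers in layer A exceeded those of layer B, and 5, 5 and 8 of them also exceeded those of layer C. Their summed levels were 108 to 134 (endothelial), 199 to 336 (mural) and 202 to 647 (meningeal) normalized CPM in layer A, against 7.47 to 19.9, 16.6 to 54.8 and 5.33 to 20.3 in B and 15.7 to 24.7, 45.9 to 67.3 and 8.61 to 39.9 in C. Of 6 microglia markers, 4 had a higher level in layer A against each of the other layers. Of 7 glutamatergic neuron markers, Neurod2, Tbr1 and Nrgn were lower in layer A than in B, while Camk2a, whose mRNA is known to enter dendrites, was higher. Against layer C, Neurod2, Neurod6 and Nrgn were lower and Camk2a was higher. Of 8 GABAergic markers Gad2 was higher in layer A than in B and Sst and Lhx6 were lower than in C, and of 6 oligodendrocyte markers Cnp was higher in layer A than in B (edgeR's quasi-likelihood test, adjusted p under 0.05 throughout). The part of these markers in the results below was not tested, and in tissue of mixed cells fewer cells of a type and less RNA per cell cannot be told apart.

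Both ligands were on average lowest in layer A, the truncated Ntrk2 transcript was highest there, and no layer difference of the full-length one passed the test. Between layers A and B, 4 of the 6 genes passed the test, Ntrk2 higher and Bdnf, Ntf3 and Sort1 lower in layer A. Over all 56416 tested transcripts 16.5% passed, 10.7% higher and 5.83% lower in layer A, and among the highest transcripts of 22263 genes 20.2% passed. Between layers A and C, Ntrk2 (higher) and Bdnf (lower) passed, with 11.3% of all transcripts called, 6.98% higher and 4.35% lower in layer A, and 14.3% of the highest ones. The median log2 fold change of the 6 genes was -0.92 for layer A minus B and -0.72 for layer A minus C, and that of all tested transcripts was -0.12 and -0.01. When single libraries were left out, the number of transcripts called lay between 5570 and 11337 for layers A and B. For A and C it lay between 1369 and 9740.

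None of the 6 genes passed edgeR's test of layer B against layer C, and 0.0% of all transcripts did. At an unadjusted p under 0.05 the count was 2316 transcripts and 0 of the 6 genes. DESeq2 called 124 transcripts and 0 of the 6 genes at an adjusted p under 0.05. Without layer B replicate 3, 17 transcripts and 0 of the 6 genes were called, and layer B minus C was 0 for Bdnf, 0.8 for Ntf3 and -0.91 for Ntrk2-202 (adjusted p = 0.313 by edgeR for the last) on the log2 scale.

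**Figure D1:**
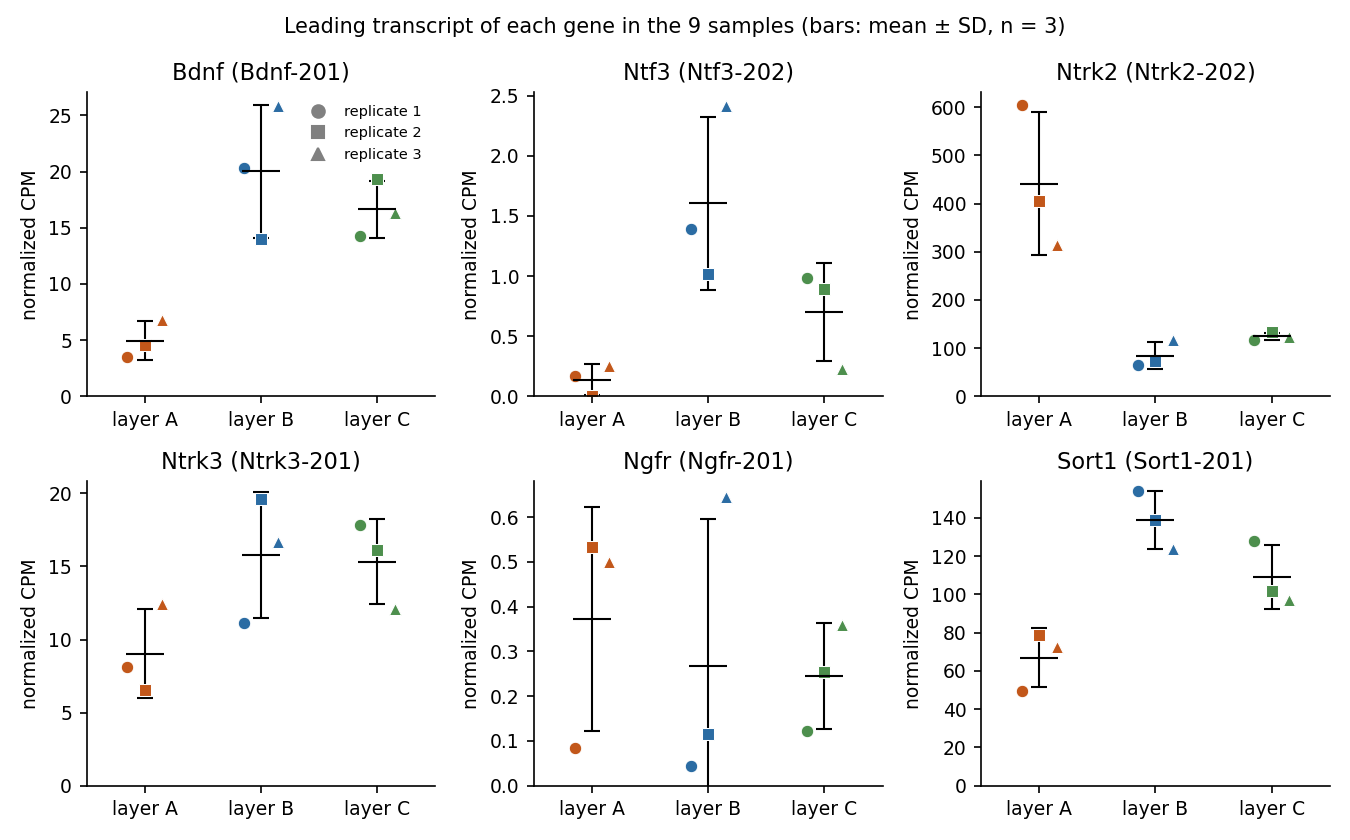
Normalized CPM (y axis, from 0) of the leading transcript of each gene by layer. Symbols are single libraries by replicate number and bars the mean ± SD of 3. The 3 layer A libraries lie below all others for Bdnf (3.47 to 6.83) and Sort1 (49.6 to 78.9) and above all others for Ntrk2 (315 to 604).

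Bdnf encodes brain-derived neurotrophic factor. Its leading transcript, Bdnf-201 (ENSMUST00000053317, chr2:109674700-109727007, plus strand), was measured at 3.47, 4.61 and 6.83 normalized CPM in layer A (41, 69 and 274 counts). The level was 20.3, 14.0 and 25.8 in layer B (902, 608 and 1238 counts) and 14.3, 19.3 and 16.3 in layer C (584, 302 and 1919 counts). Every layer A library lay below every library of the other layers, as did 15.1% of all tested transcripts against layer B and 14.5% against layer C, while layers B and C overlapped.

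The mean Bdnf level was 4.97 ± 1.71 (SD, n = 3) in layer A, 20.0 ± 5.87 in B and 16.6 ± 2.48 in C. Bdnf was thus 3.98-fold lower in layer A than in B (log2 fold change -1.99, SE 0.355, adjusted p = 0.00167 by edgeR) and 3.31-fold lower than in C (-1.73, SE 0.353, adjusted p = 0.00756). The difference between layers B and C was 0.27 on the log2 scale with an SE of 0.338 (adjusted p = 1.0). Both calls against layer A held with each of the 9 libraries left out, with the adjusted p between 0.00211 and 0.0118 for layer B and between 0.00182 and 0.0397 for layer C. Without layer B replicate 3, in which Bdnf was highest, the difference from layer B was -1.72.

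The Bdnf gene has several promoters, each joined to the same coding exon. The 10 Bdnf transcripts in the data share that exon, with 3626 bases common to Bdnf-201 and the others, and each had at least 96.1% of the count of Bdnf-201 in every library. Reads on the shared exon thus appear in all 10 counts, and the counts cannot be assigned to single promoters. Bdnf-201 also overlaps the antisense gene Gm45346 by 497 bases, and without strand in the libraries reads from both genes cannot be told apart there.

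Ntf3 encodes neurotrophin-3 and was measured far lower. Ntf3-202 (ENSMUST00000112244, chr6:126101412-126166715, minus strand) had 2, 0 and 10 counts in layer A, 62, 44 and 116 in B and 40, 14 and 27 in C. In normalized CPM these were 0.169, 0 and 0.249 in layer A, 1.39, 1.02 and 2.41 in B and 0.981, 0.893 and 0.23 in C. In layer A, replicates 1 and 2 were under the floor of 3 counts. Layer B lay above layer A in every library, as for 15.1% of all tested transcripts, and also above layer C, as for 3.92%. Layers A and C overlapped through layer C replicate 3.

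Ntf3 was lower in layer A than in B by a log2 fold change of -3.32 (SE 0.811, adjusted p = 0.011 by edgeR), with means of 0.14 ± 0.127 and 1.61 ± 0.724 (SD, n = 3). The call held with each library left out, at -4.32 to -2.84, and was -2.84 without layer B replicate 3. The mean of 0.701 ± 0.411 in layer C did not differ from either layer by the test, with -2.07 for layer A minus C (SE 0.82, adjusted p = 0.125) and 1.25 for layer B minus C (SE 0.686, adjusted p = 1.0). Per kilobase of transcript, Ntf3 stood at 1.15 normalized CPM in layer B and Bdnf at 4.69.

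Ntrk2 encodes TrkB, and its truncated and full-length transcripts differed in their layer pattern. The truncated Ntrk2-202 was measured at 604, 405 and 315 normalized CPM in layer A, at 64.2, 72.8 and 117 in B and at 118, 133 and 123 in C. In counts these were 7139, 6067 and 12632, then 2856, 3153 and 5600, then 4790, 2083 and 14489. The layers did not overlap, although layer B replicate 3 lay just below the lowest layer C library. Over all transcripts, layer A lay above layer B without overlap for 17.2% and above layer C for 17.0%, and layer B below layer C for 4.67%.

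Ntrk2-202 averaged 442 ± 148 (SD, n = 3) in layer A, 84.5 ± 28.1 in B and 125 ± 7.73 in C. It was 5.22-fold higher in layer A than in B (log2 fold change 2.39, SE 0.331, adjusted p = 0.00034 by edgeR) and 3.54-fold higher than in C (1.83, SE 0.325, adjusted p = 0.00389). Layer B minus C was -0.56 (SE 0.316, adjusted p = 1.0). Leaving out each library kept both calls, with log2 fold changes of 2.10 to 2.74 and 1.53 to 2.03. Without layer B replicate 3 layer A minus B was 2.74.

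The full-length Ntrk2-201 was measured at 87.0, 99.5 and 76.8 normalized CPM in layer A, 101, 96.3 and 93.8 in B and 113, 105 and 111 in C. Its counts ranged from 1027 to 13021. Layer A overlapped layer B, and layer C lay just above both. Over all tested transcripts, layer C lay above layer A without overlap for 14.5% and above layer B for 4.67%. The means were 87.8 ± 11.4, 97.2 ± 3.85 and 110 ± 4.36 (SD, n = 3). The log2 fold changes were -0.15 for layer A minus B (SE 0.253, adjusted p = 0.755 by edgeR), -0.32 for layer A minus C (SE 0.253, adjusted p = 0.494) and -0.17 for layer B minus C (adjusted p = 1.0), so no difference passed the test.

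The ratio of the counts of Ntrk2-201 and Ntrk2-202 compares both receptors inside each library and does not depend on how libraries are scaled. The full-length transcript took 12.6%, 19.7% and 19.6% of the counts of both in layer A, 61.2%, 56.9% and 44.6% in B and 49.0%, 44.1% and 47.3% in C. Every layer A library lay below every library of the other layers, and layers B and C overlapped through layer B replicate 3. The mean log2 ratio of full-length to truncated counts was -2.29 ± 0.44 (SD, n = 3) in layer A, 0.25 ± 0.5 in B and -0.18 ± 0.15 in C.

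Layer A minus B was -2.54 and layer A minus C was -2.10 on this scale, each with p = 0.1 in a two-sided exact permutation test, the smallest p that 3 against 3 libraries allow (adjusted p = 0.3 over 6 pairs). Layer B minus C was 0.43 (exact permutation p = 0.3). Over the 3 layers together the exact permutation test of the layer labels gave p = 0.0107, where the smallest possible is 0.00357, and 0.0214 after adjustment for the 2 genes tested in this way. With the replicate number as a block, the exact permutation test gave an unadjusted p of 0.0556 and did not pass. Without layer B replicate 3, layer A minus B was -2.82 and layer B minus C 0.72. The exact permutation test over the 3 layers then gave p = 0.00357, the smallest possible with the libraries left.

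The 2 Ntrk2 transcripts share 1737 bases, and reads there may count for both, which draws the ratio toward equality. Subtracting one count from the other removes such reads only if each counts equally for both, which is not known here. The truncated minus the full-length level was 518, 306 and 238 normalized CPM in layer A, -37.2, -23.5 and 22.8 in B and 4.47, 28.2 and 12.5 in C. On this scale too the layer A libraries stood above all others.

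**Figure D2:**
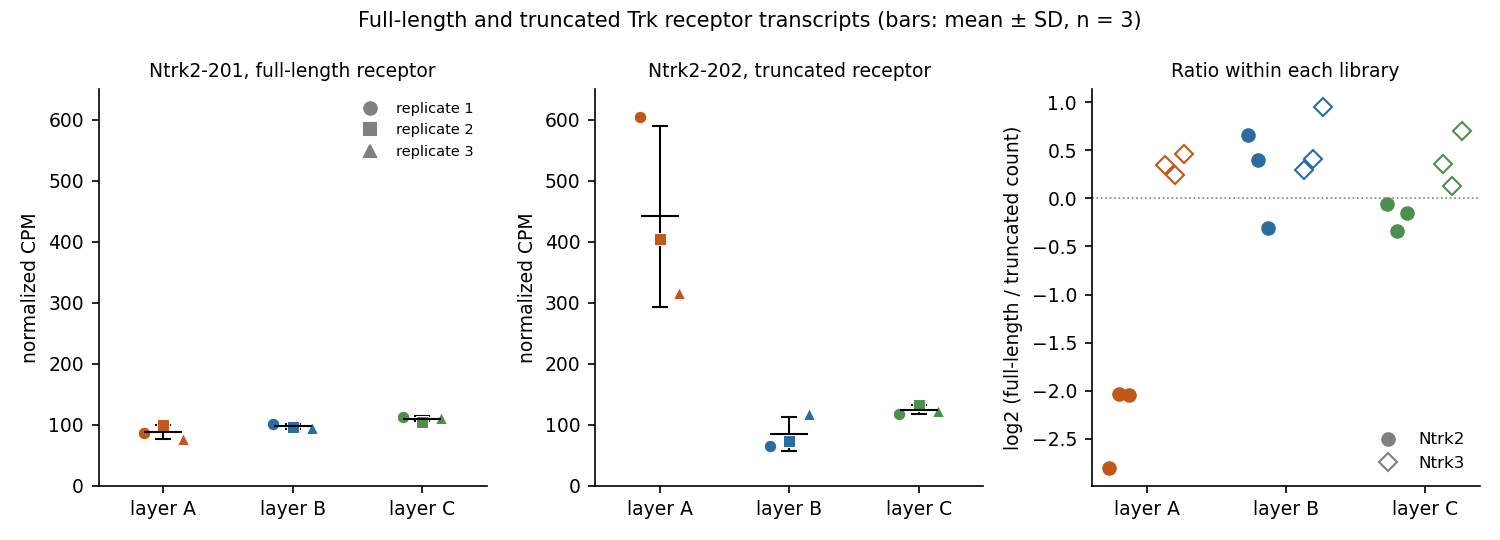
Normalized CPM of the full-length (left) and truncated (middle) Ntrk2 transcript on equal axes, by layer, with the mean ± SD of 3 libraries, and the log2 ratio of full-length to truncated counts in each library (right) for Ntrk2 (filled circles) and Ntrk3 (open diamonds). Ntrk2 ratios of layer A lie between -2.8 and -2.03, and those of layers B and C between -0.34 and 0.66, while Ntrk3 ratios lie between 0.13 and 0.95 in all libraries.

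The summed level of the astrocyte markers followed the order of Ntrk2-202 inside layers A and B. It was 11400, 9120 and 5570 normalized CPM in layer A replicates 1, 2 and 3 and 775, 798 and 1390 in B. In layer C it was 1350, 1760 and 1870, with Ntrk2-202 highest in replicate 2. Slc1a2, the glutamate transporter of astrocytes, had a log2 fold change of 3.24 for layer A minus B (SE 0.363, adjusted p = 0.000177 by edgeR), and the median over the 12 markers was 2.98. Most of the layer A sum was Slc1a2, at 8550, 6710 and 3670 normalized CPM. Single markers did not all follow the order there. Slc1a3 did, at 612, 490 and 394, while Gfap stood at 51.7, 66.7 and 42.7 and Aldh1l1 at 11.1, 12.6 and 15.1. The summed level of the mural markers followed the order of Ntrk2-202 inside all 3 layers. It was 336, 222 and 199 in layer A, 16.6, 19.8 and 54.8 in B and 45.9, 67.3 and 48.6 in C. Most of the layer A sum was Rgs5, at 297, 188 and 143. Of the other mural markers, Kcnj8 ran the same way there, at 4.83, 4.01 and 2.69, and Pdgfrb the other way, at 9.74, 11.6 and 13.5. The summed meningeal markers ran otherwise inside layer A, at 202, 263 and 647. The order inside layer A was shared by the summed glutamatergic (4230, 2860 and 2340) and GABAergic (355, 200 and 195) markers. The mitochondrial share of counts ran the same way there (72.6%, 67.15% and 56.41%). In layer B the order was shared by the summed endothelial (7.47, 9.69 and 19.9), microglia (12.5, 14.2 and 27.6) and oligodendrocyte (42.1, 45.5 and 211) markers. Neither group followed the order in the other of these layers. The part of astrocyte or mural cell number in the level of Ntrk2-202 was not tested.

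**Figure D3:**
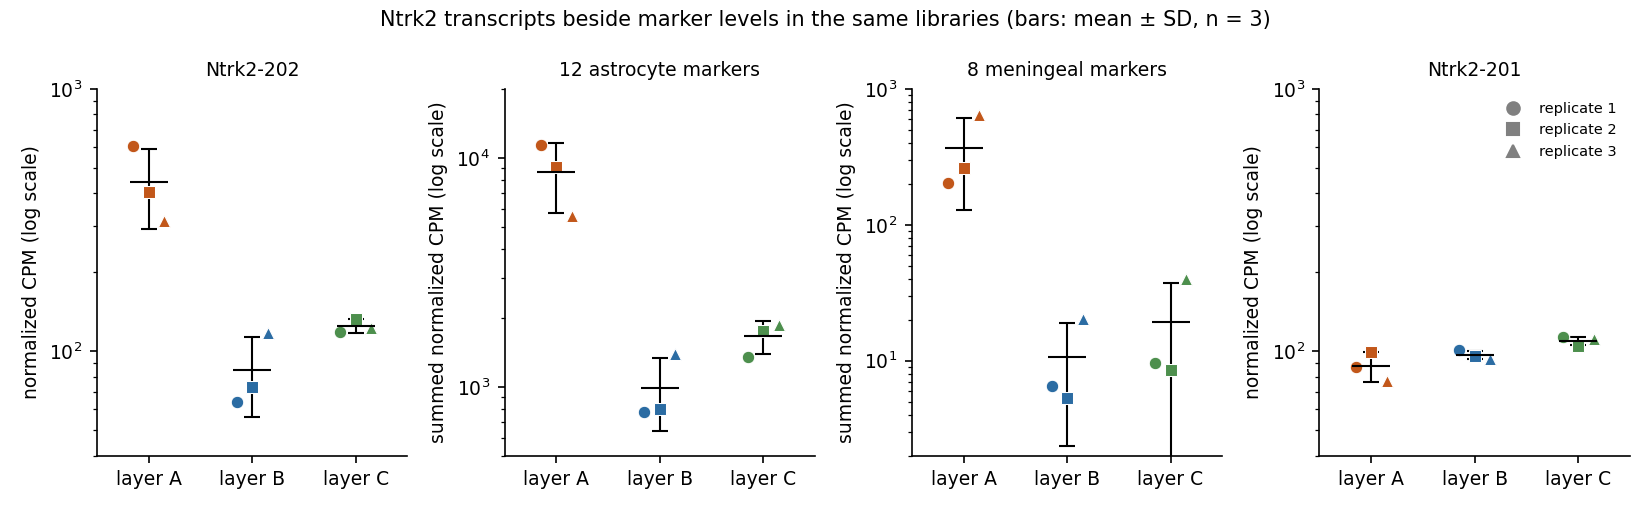
Levels in each library on log axes of Ntrk2-202, the sum of 12 astrocyte markers, the sum of 8 meningeal markers and Ntrk2-201, in normalized CPM by layer, with the mean ± SD of 3 libraries. In layer A, replicate 1 is highest for Ntrk2-202 (604) and for the sum of astrocyte markers (11400), whereas replicate 3 is highest for the sum of meningeal markers (647).

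Ntrk3 encodes TrkC, the receptor of neurotrophin-3. The full-length Ntrk3-201 was measured at 8.13, 6.55 and 12.4 normalized CPM in layer A, 11.1, 19.6 and 16.7 in B and 17.8, 16.1 and 12.1 in C. The layers overlapped, since layer A replicate 3 lay above the lowest libraries of layers B and C. The means were 9.04 ± 3.05, 15.8 ± 4.34 and 15.3 ± 2.92 (SD, n = 3), and neither layer A minus B (log2 fold change -0.80, SE 0.346, adjusted p = 0.137 by edgeR) nor layer A minus C (-0.75, SE 0.346, adjusted p = 0.195) passed the test.

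The truncated Ntrk3-202 averaged 6.98 ± 1.84 normalized CPM in layer A and 10.8 ± 3.43 in B (SD, n = 3), and stood at 13.8, 14.7 and 7.42 in the layer C libraries. Its log2 fold change was -0.63 for layer A minus B (SE 0.371, adjusted p = 0.29 by edgeR) and -0.77 for layer A minus C (SE 0.372, adjusted p = 0.22). The full-length transcript took 56.0% ± 1.9, 59.3% ± 5.8 and 56.8% ± 4.87 of the counts of both in layers A, B and C (SD, n = 3). The ratio differed by -0.2 between layers A and B on the log2 scale, and the exact permutation test over the 3 layers gave p = 0.696.

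Ngfr encodes p75, a receptor for all neurotrophins that in the adult forebrain is best known from cholinergic neurons. Ngfr-201 (ENSMUST00000000122, chr11:95568818-95587735, minus strand) had 1, 8 and 20 counts in layer A, 2, 5 and 31 in B and 5, 4 and 42 in C, at most 0.645 normalized CPM. Layer A replicate 1 and layer B replicate 1 were under the floor of 3 counts, and all layers overlapped. The log2 fold changes were 0.52 for layer A minus B (SE 0.926, adjusted p = 0.763 by edgeR) and 0.63 for layer A minus C (SE 0.938, adjusted p = 0.752), so that even a 2-fold difference was not detectable at this depth. Of the cholinergic markers, Slc5a7 averaged 0.16 to 0.241 normalized CPM and Chat at most 0.0478.

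Sort1 encodes sortilin. Sort1-201 (ENSMUST00000102632, chr3:108284091-108361511, plus strand) was measured at 49.6, 78.9 and 72.3 normalized CPM in layer A, 154, 139 and 124 in B and 128, 102 and 97.2 in C. Layer A lay below layers B and C in every library, and layers B and C overlapped at their edge. Of all tested transcripts, 15.1% lay lower in layer A without overlap against layer B and 14.5% against layer C. The means were 66.9 ± 15.4, 139 ± 15.0 and 109 ± 16.4 (SD, n = 3).

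Sort1 was 2.07-fold lower in layer A than in B (log2 fold change -1.05, SE 0.28, adjusted p = 0.0173 by edgeR). This call was lost without layer A replicate 1 (-0.87, adjusted p = 0.0786), without layer B replicate 1 (-0.93, adjusted p = 0.0956) and in a fit of the 6 libraries of both layers alone (-1.0, adjusted p = 0.0502). Without layer B replicate 3 it was -1.07 (adjusted p = 0.0142). Layer A minus C was -0.70 (SE 0.278, adjusted p = 0.125). A second coding transcript, Sort1-203, shares all but 9 of its 6836 bases with other Sort1 transcripts and had 19.1% to 41.4% of the count of Sort1-201, with a log2 fold change of -1.08 for layer A minus B (SE 0.366, adjusted p = 0.0566). Near-identical transcripts thus had unequal counts, the cause of which was not tested, and levels per length are approximate. Sort1-201 also overlaps the antisense gene Gm12523 by 329 bases.

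Per kilobase, the leading transcripts and Ntrk2-201 were ordered in layer A as follows. Ntrk2-202 came first at 64.5 normalized CPM, then Ntrk2-201 just above Sort1 at 9.85, Bdnf at 1.17 and Ntrk3-201 at 0.459. Ngfr at 0.108 and Ntf3 at 0.0998 came last, both at few counts and with overlapping libraries. The shorter Ntrk3-202 stood at 1.76 in layer A, so the order of Bdnf and Ntrk3 there depends on the transcript. In layer B Sort1 came first at 20.4, before Ntrk2-202 at 12.3 and Ntrk2-201 at 11.1, and in layer C Ntrk2-202 stood at 18.2, Sort1 at 16.1 and Ntrk2-201 at 12.5. In layer A the libraries of Ntrk2-201 and Sort1 overlapped, in B those of Ntrk2-202 and Ntrk2-201, and in C those of Ntrk2-202 and Sort1, so these neighbours did not differ beyond their spread, while Sort1 lay above the others in every layer B library and Ntrk2-201 below the others in every layer C library. Bdnf and Ntrk3 followed below them in both layers.

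Ntf5, which encodes neurotrophin-4, another ligand of TrkB, reached at most 6 counts in a library and did not pass the count filter.

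The relatives of sortilin belong to the same family of sorting receptors. Sorcs3 was lower in layer A than in B (log2 fold change -1.27, SE 0.375, adjusted p = 0.0301 by edgeR) and than in C (-1.55, SE 0.378, adjusted p = 0.0169). Sorcs1 (-1.84, SE 0.459, adjusted p = 0.0187) and Sorl1 (-0.95, SE 0.282, adjusted p = 0.0408) were lower in layer A than in C, and Sorcs2 passed in neither comparison. These calls depended on single libraries. That of Sorcs3 against layer B was lost without layer A replicate 1 or 2, layer B replicate 1 or 2 or layer C replicate 1 (adjusted p from 0.0557 to 0.119) and with the 6 libraries of both layers alone (0.0694), and that against layer C without layer A replicate 1 or 2 or layer C replicate 1 or 3 (0.0605 to 0.0711). The Sorcs1 call was lost without layer A replicate 2 or layer C replicate 1 or 2 (0.0512 to 0.0903). The Sorl1 call was lost without layer A replicate 2 or 3, layer B replicate 1 or any layer C library (0.0708 to 0.154). It was also lost with RLE size factors (0.0529) and with the replicate number as a block (0.0567).

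Of 10 tested genes for the processing of neurotrophin precursors, 3 were lower in layer A than in B, and 2 were lower and 1 was higher in layer A than in C, with medians of -0.54 and -0.24. For comparison, 12.8% of the highest transcripts of all genes were higher and 7.35% lower in layer A against layer B, and 8.87% and 5.46% against layer C. Pcsk2, a convertase of the regulated secretory pathway that cleaves precursors, averaged 18.1 ± 9.19, 91.1 ± 6.9 and 84.4 ± 9.38 normalized CPM in layers A, B and C (SD, n = 3). It was lower in layer A than in both (-2.32, SE 0.363, adjusted p = 0.000756, and -2.21, SE 0.362, adjusted p = 0.0027, by edgeR), and both calls held with each library left out. Its relative Pcsk1 passed against layer B (-1.84, adjusted p = 0.0302) and lost the call without layer A replicate 1 or 3, layer B replicate 1 or 2 or layer C replicate 1 (0.0535 to 0.0794) and with the 6 libraries of both layers alone (0.0775). The convertase Pcsk5 passed against layer C (-2.39, adjusted p = 0.00996) and not without layer C replicate 1 (0.056). The protease genes were less firm. Mmp9, a matrix metalloproteinase, had 0, 0 and 1 counts in layer A, 10, 10 and 24 in B and 4, 0 and 11 in C, at most 0.5 normalized CPM. With 1 count in layer A against 44 in B, the normalized level was 21.7 times as high in B, with an exact 95% counting interval of 3.69 to 875. Mmp9 passed the test (-4.24, adjusted p = 0.0285) at -6.76 to -3.69 over the fits that left out 1 library, and lost the call without any layer A library or without layer B replicate 1 or 3 (0.0513 to 0.0896). Plat, tissue plasminogen activator, was higher in layer A than in C (1.10, adjusted p = 0.0386), a call that was lost without any 1 library but layer B replicate 3 (0.0507 to 0.155) and with no filter (0.0773). Furin, which cleaves precursors in the Golgi, had a log2 fold change of -0.43 (adjusted p = 0.554) for layer A minus B.

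Of 19 adaptor genes that couple Trk receptors to their signalling cascades, Gab1, Shc3 and Rapgef1 were higher and Shc2 was lower in layer A than in B, and Gab1 was higher than in C. The medians were 0.46 and 0.28, against -0.14 and -0.01 over the highest transcripts of all genes. Of those transcripts 20.2% passed between layers A and B and 14.3% between A and C. The docking protein gene Gab1 averaged 26.7 ± 10.8, 5.41 ± 0.596 and 7.05 ± 1.58 normalized CPM in layers A, B and C (SD, n = 3), with log2 fold changes of 2.30 (SE 0.356, adjusted p = 0.00072 by edgeR) and 1.91 (SE 0.352, adjusted p = 0.00463). Shc3 passed against layer B (1.68, SE 0.333, adjusted p = 0.00323). These calls of Gab1 and Shc3 held with each library left out. Rapgef1, an exchange factor for the GTPase Rap1, passed against layer B (0.94, adjusted p = 0.0371) but not without layer A replicate 1 or 2, layer B replicate 1 or 2 or layer C replicate 1 (0.0536 to 0.144). Nor did it pass with no filter (0.0561), with the replicate number as a block (0.0506) or in a fit of the 6 libraries of both layers alone (0.0508). Shc2 (-1.05, adjusted p = 0.0493) kept its call only without layer A replicate 3 or layer B replicate 3, was at 0.0537 to 0.173 otherwise, and also lost it under 6 of the 8 other alternatives.

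Among 15 genes of the kinase cascade, with medians of -0.41 and -0.04, Map2k1 and Camk4 were lower in layer A than in B and C, and Rps6ka1 was higher than in B. Over the highest transcripts of all genes, 20.2% passed between layers A and B and 14.3% between A and C. Map2k1, which encodes a kinase of the MAP kinase pathway, averaged 33.6 ± 5.75 normalized CPM in layer A, 110.0 ± 33.1 in B and 68.8 ± 7.95 in C (SD, n = 3). Its log2 fold change was -1.71 for layer A minus B (SE 0.3, adjusted p = 0.00148 by edgeR). Camk4, a calcium-dependent kinase that acts on CREB, had -1.46 (SE 0.301, adjusted p = 0.00418), and Rps6ka1, a ribosomal S6 kinase at the end of the pathway, had 1.97 (SE 0.479, adjusted p = 0.0108). These 3 calls against layer B held with each library left out. Those against layer C were less firm. Map2k1 (-1.03, adjusted p = 0.0349) lost it without any layer A or C library or layer B replicate 1 (0.0574 to 0.168), and Camk4 (-1.34, adjusted p = 0.0112) without layer A replicate 1 or layer C replicate 1 or 2 (0.0505 to 0.0638). Creb1 had a log2 fold change of -0.14 (adjusted p = 0.811) for layer A minus B.

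Of 9 partners of p75, Rtn4r, Lingo1 and Maged1 were lower and Adam17 was higher in layer A than in both other layers, with medians over the list of -0.53 and -0.42. The share of all genes that passed, by their highest transcripts, was 20.2% against layer B and 14.3% against layer C. Rtn4r, the Nogo receptor, had a log2 fold change of -2.44 for layer A minus B (SE 0.488, adjusted p = 0.00341 by edgeR) and its co-receptor Lingo1 had -1.67 (SE 0.372, adjusted p = 0.00653). Against layer C the values were -2.24 (adjusted p = 0.00979) and -1.75 (adjusted p = 0.00913), and without layer C replicate 1 these lost the call (0.0541 and 0.0595). Adam17, a protease that sheds the outer part of p75, had 1.80 against layer B (SE 0.387, adjusted p = 0.00527) and 1.39 against layer C (adjusted p = 0.0294), the latter lost without layer A replicate 1 or 2 or layer C replicate 1 or 3 (0.0765 to 0.169). The calls of Rtn4r, Lingo1 and Adam17 against layer B held with each library left out. Maged1, which binds the inner part of p75, had -1.26 (adjusted p = 0.01), lost without layer A replicate 2 (0.052), and -1.07 against layer C (adjusted p = 0.0314), lost without layer A replicate 1 or 2 or layer C replicate 1 or 3 (0.104 to 0.131).

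Of 8 regulators of the Bdnf promoters, Rest was higher and Mef2c lower in layer A than in both other layers, and the medians were 0.38 and 0.19. Among the highest transcripts of all genes, 20.2% passed against layer B and 14.3% against layer C. Rest, a repressor of neuronal genes in non-neuronal cells, averaged 8.83 ± 3.64, 1.05 ± 0.101 and 1.67 ± 0.857 normalized CPM in layers A, B and C (SD, n = 3), with log2 fold changes of 3.06 (SE 0.486, adjusted p = 0.000826 by edgeR) and 2.41 (SE 0.475, adjusted p = 0.0062). Mef2c, a transcription factor of excitatory neurons, averaged 106 ± 29.1, 351 ± 47.7 and 296 ± 55.8, with -1.72 (SE 0.301, adjusted p = 0.00146) and -1.48 (SE 0.299, adjusted p = 0.00722). These calls held with each library left out. Npas4, which neuronal activity induces, had -1.36 for layer A minus B (SE 0.586, adjusted p = 0.133).

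In the test of layer B against layer C none of the 66 tested genes of these lists passed edgeR's test. At an unadjusted p under 0.05 there were 5 (Sorl1, Pcsk5, Mmp9, Shc3 and Map2k1), and DESeq2 called 0. At the same unadjusted p edgeR had 2316 of all 56416 transcripts. In a fit of the highest transcript of each gene alone it had 1178 of 22263. The 5 genes are thus not read as a result about these lists. Without layer B replicate 3, Pcsk5 alone of the genes named here passed, at -2.62 for layer B minus C (adjusted p = 0.0486 by edgeR). In the same fit Plat passed between layers A and B (0.0381), and Shc3 (0.0302) and Pcsk1 (0.0309) between A and C.

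**Figure D4:**
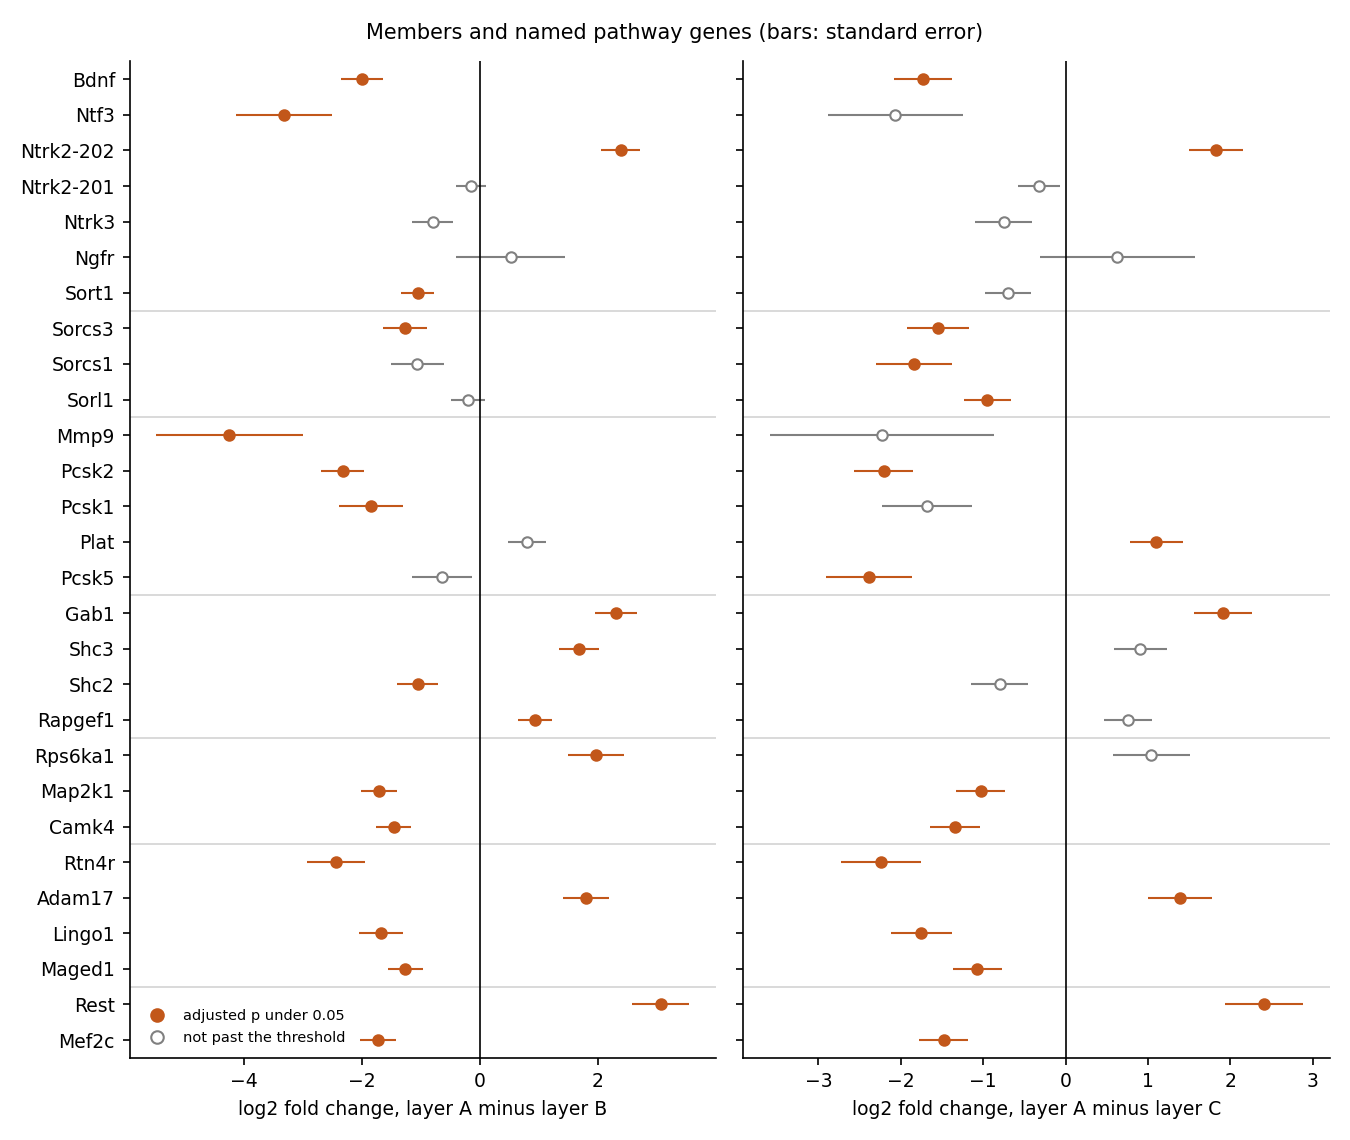
Log2 fold change of layer A minus layer B (left) and layer A minus layer C (right), with standard error bars, for the leading transcripts, Ntrk2-201 and the pathway genes named above, grouped by list. Filled points passed an adjusted p of 0.05 and open points did not. Ntrk2-202 stands at 2.39 and 1.83 while Ntrk2-201 stands at -0.15 and -0.32, and Bdnf and Pcsk2 lie left of 0 in both panels.

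Genes whose level ran most alike were taken from 6794 genes with a mean of at least 5 normalized CPM, by Pearson's r over the 9 libraries, as a description without a test. Bdnf ran most like Acsl1 (r = 0.995), Fam126b (0.99) and B3galt2 (0.989). Ntrk2-202 ran most like Ctso (0.996), Rin2 (0.995) and Prex2 (0.994), and Prex2 averaged 265 normalized CPM in layer A, 22.3 in B and 40.7 in C. Sort1 ran most like Calr (0.992), Nptx1 (0.987) and Cpne5 (0.981). Ntrk3 ran most like Dido1 (0.938), Zfyve28 (0.933) and Pde4dip (0.93). Ntf3 (Fam171a1 at 0.976, Gucy1a1 at 0.974 and Chgb at 0.967) and Ngfr (Sptlc1 at 0.89, Tnk2 at 0.886 and Cox8a at 0.879) had counts too low for their likeness to be read. The 9 points fall into 3 layers and are not independent.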

How the data were processed

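The authors amplified RNA of micro-dissected tissue with the Ovation system, prepared strand non-specific libraries, aligned the reads (Bowtie, mm10) and deposited, for each Ensembl transcript, its raw count. The submitters' processing notes also name bcl2fastq 1.8.4 and HTSeq 0.5.3. The counting mode, the Ensembl release and the treatment of reads shared by transcripts are not given in the sources used here. Of 95533 transcript identifiers, 82779 were matched to GENCODE vM21 (GRCm38, the same assembly as mm10), from which symbols, coordinates and sequences were taken.

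Transcripts that reached 10 counts in 3 or more samples (56416) were normalized by TMM and tested in 1 fit of all 9 samples with edgeR 4.0.16 (R 4.3.3), using quasi-likelihood F-tests and Benjamini-Hochberg adjustment over all of them, at a threshold of 0.05. Standard errors were derived from the fold change and F (log2 fold change over root F). Isoform ratios (0.5 added to each count) were compared by exact permutation. Alternatives were RLE size factors, DESeq2 1.42.0, other filters, a replicate block, 6 samples only, no mitochondrial transcripts, the highest transcript of each gene and single samples left out. The genes and gene lists were chosen with earlier results of these data known. Of each list, genes that passed between layers A and B or A and C were named, up to 8, except a few that are not reported here, and others (Furin, Creb1, Npas4 and the markers named) were chosen after their values were seen. Histology and tracing were not analysed here.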

Additional observations from a re-analysis of the deposited data

How the results depend on the processing

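Fold changes of the 6 genes and Ntrk2-201 were recomputed 335 times under the alternatives. Of these, 101 belonged to called results, of which 3 lost the call and 0 changed sign, and 234 to results that were not called, of which 6 changed sign, all between layers B and C. Those were Ntrk3, at -0.16 to 0.21 over the fits that left out 1 sample (negative without layer B replicates 2 and 3 and layer C replicate 3), and Ngfr, at -0.28 with the replicate block, -0.01 with the highest transcript of each gene and -0.25 (without layer C replicate 1) to 0.58 over the fits that left out 1 sample. The 3 lost calls, all of Sort1 between layers A and B, kept the direction, at -1.0 with only the 6 samples and at -1.18 to -0.87 over the fits that left out 1 sample. Ngfr was below the count filter in 3 of those 9 fits. Of 1110 values for the other named genes, 88 lost and 10 gained the call, and 6 changed sign, all of results that were not called. Those were, over the fits that left out 1 sample, Pcsk2 (-0.01 to 0.15), Camk4 (-0.15 to 0.37), Lingo1 (-0.28 to 0.11) and Maged1 (-0.07 to 0.29) between layers B and C and Pcsk5 (-0.9 to 0.24) between A and B. With the highest transcript of each gene alone, 5006 were called between layers A and B, 3749 between A and C, 5 between B and C and 4501 among the 3 layers. Between B and C, DESeq2 called 124 and the fit with no filter 10. Leaving out 1 sample gave 5570 (without layer A replicate 1) to 11337 transcripts for A against B, with 5759 without layer B replicate 1; 1369 (without layer C replicate 1) to 9740 (without layer B replicate 3) for A against C, with 2727 and 3238 without layer A replicates 1 and 2 and 3785 without layer C replicate 2; 0 to 17 (without layer B replicate 3) for B against C; and 4070 (without layer A replicate 1) to 11312 among the 3 layers, with 4707 without layer A replicate 2. Where these counts moved, the cause was not tested. Deviations of same-numbered samples correlated at -0.186 to 0.243 over 9 pairs, and those of differently numbered samples at -0.369 to 0.394 over 18. With both so scattered, the correlations cannot settle whether the numbers pair the samples. With the replicate number as a block 9184, 6384 and 0 transcripts were called in the 3 comparisons, and the exact permutation p of the Ntrk2 ratio over the layers was 0.0556. Low depth limits Ngfr and Ntf3, and shared bases limit what the counts say of single Bdnf and Sort1 transcripts.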
